A study of Homo sapiens with 6 samples.

Results

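The long noncoding RNAs (lncRNAs) MALAT1, NEAT1, KCNQ1OT1, MIAT, PVT1, TUG1, NORAD and OIP5-AS1, which textbooks use as references for where an RNA sits in the cell, were followed in the extracellular vesicles (EVs) that K562 cells release and in the whole cells (WC). They were found by symbol, 8 of the 68201 genes in the count table. The nuclear set held the 5 genes MALAT1, NEAT1, KCNQ1OT1, MIAT and PVT1. NORAD and OIP5-AS1 made up the cytoplasmic set of 2, and TUG1, which is found in both compartments, stood alone. The genes were placed in these classes from general knowledge, not from any value measured here, and no nuclear or cytoplasmic fraction of K562 was analysed here.

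K562 is an established human line from a chronic myelogenous leukaemia with erythroid features. The EV group consists of 3 libraries of RNA from vesicles purified out of conditioned medium, and the WC group of 3 libraries of RNA from samples of the producing cells. All cultures were wild type and untreated and were kept in medium with vesicle-depleted serum during the collection. Libraries were nanopore PCR-cDNA primed at poly(A), and each loading combined an EV and a WC library.

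Long noncoding RNAs are spliced and polyadenylated much like mRNAs, but many of them stay at or near the chromatin that made them. MALAT1 collects in nuclear speckles, which hold splicing factors, and NEAT1 is the RNA scaffold of paraspeckles. KCNQ1OT1 silences neighbouring genes on the paternal chromosome from which it is transcribed. NORAD stays in the cytoplasm and binds Pumilio proteins, which repress mRNAs, while OIP5-AS1 (Cyrano) pairs with the microRNA miR-7. EVs form by budding at endosomes or at the plasma membrane and so enclose cytoplasm. The question set by the comparison was how the nuclear and the cytoplasmic references were represented in EV RNA relative to WC RNA.

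The feature that ties NORAD to Pumilio proteins is visible in its sequence. Its annotated transcript NORAD-201 is a single exon of 5401 nt on chromosome 20 (GRCh38, minus strand, 36045618 to 36051018), taken from GENCODE v44. A search for the Pumilio element TGTANATA, with N for any base, found 15 copies on the sense strand and 1 on the antisense strand. Of the longest transcripts of 8701 tested genes 31.2% held any copy on the sense strand, and 5 transcripts, NORAD among them, held 15 or more. These transcripts had a median of 3162 nt. Of the 1486 that were 4500 to 6500 nt long, nearer to NORAD, 49.1% held a copy and 2, NORAD among them, held 15 or more. Of the 15 copies, 10 read TGTATATA, 4 read TGTAAATA and 1 read TGTACATA, with no overlap among them. They ran from base 819 to base 4657 of the transcript. The 200 nt with the most copies, bases 2519 to 2718, are shown with the 3 elements in capitals (GRCh38 chr20:36048301-36048500, minus strand).
NORAD: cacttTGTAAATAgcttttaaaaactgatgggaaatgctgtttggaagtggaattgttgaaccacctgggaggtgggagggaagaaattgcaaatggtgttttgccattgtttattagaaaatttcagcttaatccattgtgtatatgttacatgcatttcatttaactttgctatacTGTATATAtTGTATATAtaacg
Per length NORAD held 2.78 copies per kb, against 0.113 in OIP5-AS1-201, 0.264 in NEAT1-202, 0.268 in TUG1-217 and 0.0982 in KCNQ1OT1-201. Of the 8701 longest transcripts 8, NORAD among them, reached its density. MALAT1-202 and MIAT-218 held none on the sense strand.

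MALAT1 and the long form of NEAT1 share another feature, a 3′ end that is cut by RNase P and carries no poly(A) tail of the usual kind. That end folds into a triple helix in which U-rich stretches hold a genomic A-rich tract. The stretch of MALAT1-202 that ends 6 nt past its run of 13 A (GRCh38 chr11:65506007-65506116, plus strand) and the last bases of NEAT1-202 (GRCh38 chr11:65445431-65445540, plus strand) are shown, each 110 nt long. Capitals mark the longest run that both share, 16 nt, and the 11 nt with which both end.
MALAT1: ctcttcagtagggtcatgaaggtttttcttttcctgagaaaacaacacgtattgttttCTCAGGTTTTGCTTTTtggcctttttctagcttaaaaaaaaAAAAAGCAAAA
NEAT1: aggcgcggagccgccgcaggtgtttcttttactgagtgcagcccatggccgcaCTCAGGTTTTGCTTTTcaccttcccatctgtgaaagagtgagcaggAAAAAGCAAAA
The annotated MALAT1-202 runs on for 1957 nt past the printed stretch. Runs of at least 12 A, from which poly(A) priming can also start, numbered 1 in MALAT1-202, 3 in NEAT1-202, 9 in the 91667 nt of KCNQ1OT1-201, 1 each in TUG1-217 and OIP5-AS1-201 and 0 in NORAD-201. Such a run was present in 18.0% of the 8701 longest transcripts, and in 27.7% of those 4500 to 6500 nt long. How many reads started at such runs was not tested.

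OIP5-AS1 carries a long match to miR-7, the site for which Cyrano is known in vertebrates. The mature microRNA (RefSeq, GRCh38.p14) is shown with its seed, bases 2 to 8, in capitals. Below it stands the site in OIP5-AS1-201 (GRCh38 chr15:41300574-41300599, plus strand), with the bases complementary to the microRNA in capitals.
hsa-miR-7-5p: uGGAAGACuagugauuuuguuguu
OIP5-AS1: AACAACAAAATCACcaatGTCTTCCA
Of the 24 bases of the microRNA 22 were matched, 14 on the 5′ side of the site and 8 on its 3′ side, around a short unmatched stretch. The seed match with its closing A, GTCTTCCA, occurred 2 times each in OIP5-AS1-201 and KCNQ1OT1-201 and 1 time in MIAT-218 on the sense strand, and at least 1 time in 8.0% of the 8701 longest transcripts.

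The counts summed to between 560157 and 881338 in EV libraries and to between 2480560 and 3178211 in WC libraries, so EV values rest on fewer reads. EV libraries had counts in 12891 to 14263 genes and WC libraries in 21997 to 23874. Of the 10 erythroid and K562 genes checked all had reads in both groups, and of the 9 tested 5 were higher and 1 was lower in EVs. Of all tested genes 22.8% were higher and 21.4% lower. GATA1 was at 106 ± 23.3 counts per 1000000 counts (CPM) in EVs and 99.2 ± 13.6 CPM in WC, the fetal globin gene HBG2 at 217 ± 41.7 CPM in EVs and 11.1 ± 3.62 CPM in WC, and the transferrin receptor gene TFRC, the 1 lower, at 66.99 ± 4.65 CPM in EVs and 145 ± 11.5 CPM in WC (SD, n = 3 each). When libraries were scaled by total counts alone, 3 of the 9 tested K562 genes were higher and 3 lower. Markers of other cells were read as lists of 3 genes each. B cell, fibroblast and monocyte lists had 2, 1 and 2 reads over the EV libraries and 37, 1 and 31 over the WC libraries, with MS4A1, CD79A, COL1A2 and COL3A1 at 0 in both groups. The T cell list summed to between 27.4 and 50.9 CPM in EVs and between 24.1 and 30.4 CPM in WC, nearly all from CD3D, with CD3E at 0 reads in EVs. The epithelial list, nearly all KRT19 and EPCAM, summed to between 139 and 181 CPM in EVs and between 286 and 337 CPM in WC.

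Of the 8 lncRNAs 7 passed the expression filter. In EVs MALAT1 was higher, NEAT1 and KCNQ1OT1 were lower, and PVT1, TUG1, NORAD and OIP5-AS1 did not pass the test at an adjusted p under 0.05 (edgeR, quasi-likelihood test, Benjamini-Hochberg over 8716 genes). These calls stand against a background of 22.8% of tested genes higher and 21.4% lower in EVs, so 1 and 2 of 7 are shares near the background. KCNQ1OT1, with 7 EV reads, passed the filter through its WC reads, which favours a lower call. CPM of the 2 groups did not overlap for NEAT1, KCNQ1OT1, PVT1 and NORAD, 4 of the 7, where 55.2% of all tested genes did not overlap. Both directions occurred within the nuclear set. In bulk RNA, fewer vesicles that carry an RNA and fewer copies in each vesicle cannot be told apart.

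**Figure D1:**
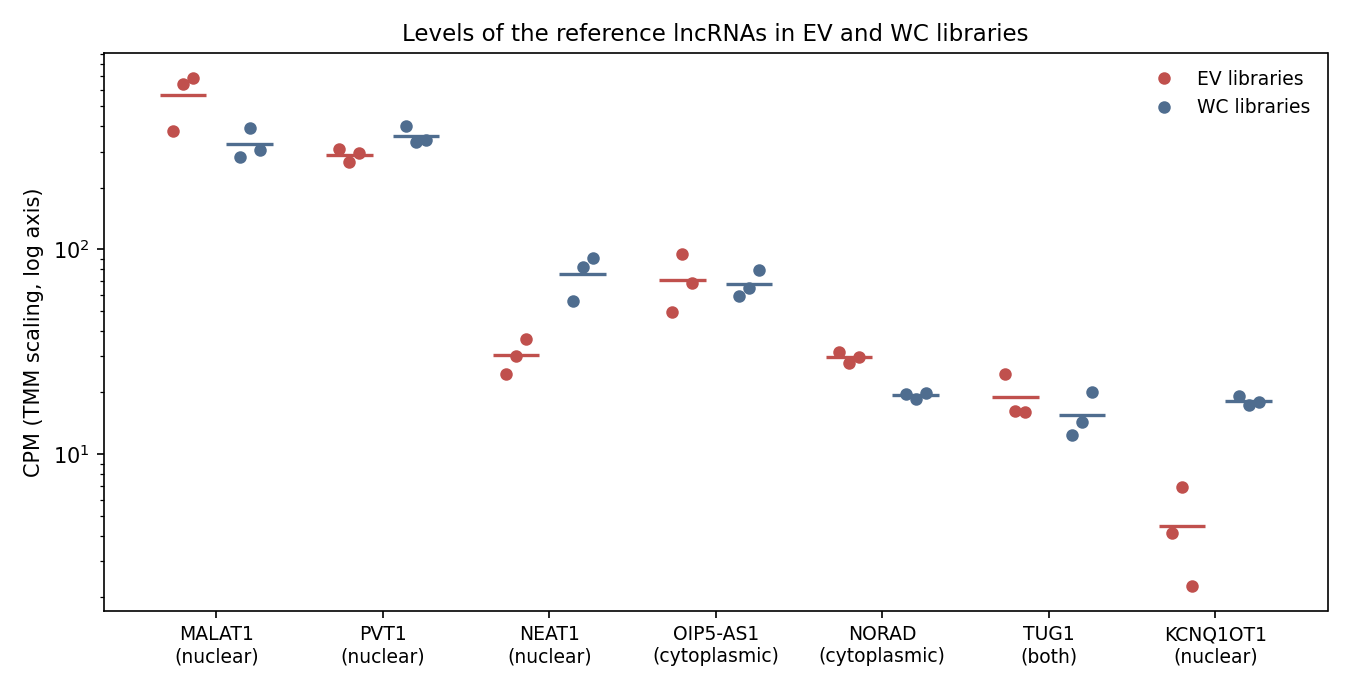
CPM (TMM scaling, log axis) of 7 reference lncRNAs in each library, EV libraries left of WC libraries, with bars at the group means (n = 3 each). NEAT1 and KCNQ1OT1 lie lower in every EV library than in any WC library, while MALAT1 lies between 379 and 683 CPM in EVs and between 281 and 391 CPM in WC, with 1 EV library inside the WC range.

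MALAT1 (chromosome 11, 65497640 to 65508073, plus strand, 10434 nt of exon) was the most abundant of the 8 in EVs. Its level was 379, 638 and 683 CPM in the EV libraries and 281, 391 and 307 CPM in the WC libraries. The lowest EV library lay below the highest WC library, and the other two EV libraries lay above all WC libraries. Means were 567 ± 164 CPM in EVs and 326 ± 57.3 CPM in WC (SD, n = 3 each), and edgeR put the difference at 0.78 on the log2 scale (SE 0.19, adjusted p = 0.0018). The antisense transcript TALAM1 overlaps 8121 nt of MALAT1 exon, and it had 0 reads in EVs and 11 in WC. If strand was not used in counting, reads over the shared exon may be missing from both genes. The low TALAM1 counts therefore do not show how many MALAT1 reads were left out. The call was lost when libraries were scaled by their total counts alone (log2 fold change 0.11, adjusted p = 0.6, edgeR).

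NEAT1 (chromosome 11, 65422774 to 65445540, plus strand) lies next to MALAT1 in the genome. It had 24.7, 30.1 and 36.5 CPM in the EV libraries and 56.0, 81.7 and 90.5 CPM in the WC libraries. Every EV library lay below every WC library. The means of 30.4 ± 5.93 CPM in EVs and 76.1 ± 17.9 CPM in WC correspond to -1.36 on the log2 scale (SE 0.26, edgeR adjusted p = 0.00013). The 3 EV libraries held 47 NEAT1 reads and the 3 WC libraries 794. NEAT1 has a short polyadenylated and a long form that begin at the same base, and the gene counts do not separate them.

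KCNQ1OT1 (chromosome 11, 2597308 to 2700003, minus strand) is an unspliced transcript of about the length of its gene, antisense to the potassium channel gene KCNQ1. It was the lowest of the 7 tested lncRNAs in EVs, with 4.12, 6.94 and 2.28 CPM, and had 19.2, 17.4 and 18.0 CPM in the WC libraries. The groups did not overlap, and the WC libraries lay close together. By edgeR KCNQ1OT1 was lower by -2.04 on the log2 scale, with an SE of 0.45 and an adjusted p of 0.00063. With 3, 3 and 1 reads in the EV libraries it passed the expression filter through its WC reads, which favours a lower call. Only 7 reads in EVs stood against 186 in WC, a ratio of 0.155 relative to all counts, with an exact 95% interval from 0.0616 to 0.327 that covers counting error alone. KCNQ1 overlaps 121 nt of its exon on the other strand and had no reads in either group.

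MIAT (chromosome 22, 26646411 to 26676475, plus strand), known from brain and heart, had no read in EVs and 1, 9 and 1 reads in the WC libraries. Its WC level, 1.32 reads per 1000000 counts, lay below the 1.48 per 1000000 that 3 reads make over the EV libraries. A difference was therefore not detectable at this depth, and the gene did not enter the test.

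PVT1 (chromosome 8, 127794526 to 128187101, plus strand) is the lncRNA neighbour of MYC, and its locus is amplified with MYC in many cancers. Its levels were 309, 266 and 295 CPM in the EV libraries and 397, 332 and 341 CPM in the WC libraries. EV libraries lay below all WC libraries, but by little, with means of 290 ± 21.7 CPM in EVs and 357 ± 35.4 CPM in WC (SD, n = 3 each). This log2 difference, -0.30 with an SE of 0.16, did not pass the test (edgeR adjusted p = 0.13). Without EV replicate 1 it was -0.38 and passed (adjusted p = 0.048, edgeR), with DESeq2 it was -0.41 (adjusted p = 0.034), and with no expression filter -0.51 (adjusted p = 0.024, edgeR). MYC mRNA itself, the transcription factor encoded beside PVT1, was higher in EVs, at 23.7 ± 3.39 CPM against 10.3 ± 1.22 CPM in WC (SD, n = 3 each), or 1.23 on the log2 scale (SE 0.31, edgeR adjusted p = 0.002).

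TUG1 (chromosome 22, 30969245 to 30979395, plus strand) is reported in the nucleus and the cytoplasm. It had 24.7, 16.2 and 16.0 CPM in the EV libraries and 12.4, 14.3 and 20.1 CPM in the WC libraries. The groups overlapped, and the log2 difference of 0.34 was about as large as its SE of 0.33 (edgeR adjusted p = 0.41). With 32 EV reads the test had little precision.

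NORAD, the Pumilio-binding RNA printed above, had 31.6, 27.8 and 29.7 CPM in the EV libraries and 19.6, 18.6 and 19.8 CPM in the WC libraries. With TMM scaling every EV library lay above every WC library, with means of 29.7 ± 1.90 CPM in EVs and 19.3 ± 0.611 CPM in WC (SD, n = 3 each). On the log2 scale the difference was 0.63 (SE 0.26) and missed the threshold narrowly (edgeR adjusted p = 0.051, unadjusted p = 0.023), on 48 EV reads and 198 WC reads. It passed under none of the 13 alternatives, where it ran from -0.02 to 0.67 (adjusted p = 0.052 to 0.95, edgeR or DESeq2).

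OIP5-AS1 (chromosome 15, 41283958 to 41322392, plus strand) had 49.4, 94.8 and 68.5 CPM in the EV libraries and 59.1, 64.6 and 79.1 CPM in the WC libraries. The WC values lay inside the EV range. A log2 difference of 0.02 with an SE of 0.23 (edgeR adjusted p = 0.95) left room for a change of either sign. Its exons overlap 759 nt of OIP5 on the other strand, which had 0 reads in EVs and 13 in WC.

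The direction of several of these differences depended on the scaling. TMM factors were 0.765 to 0.839 in EV libraries and 1.20 to 1.31 in WC libraries. Scaling by total counts alone moved the median of all tested genes to -0.78, against -0.13 with TMM, and the split of calls to 1066 higher and 4494 lower, against 1987 higher and 1864 lower. On that scale NEAT1 (-2.02, adjusted p = 4.4e-06, edgeR), KCNQ1OT1 (-2.68, adjusted p = 3e-05), PVT1 (-0.95, adjusted p = 1.6e-05) and OIP5-AS1 (-0.64, adjusted p = 0.02) were lower in EVs. NORAD stood at -0.02 and TUG1 at -0.31, both with the sign turned and neither past the threshold. Relative to the median gene, PVT1, NEAT1 and KCNQ1OT1 were lower on both scales, and MALAT1, NORAD, TUG1 and OIP5-AS1 higher. The change of scaling moved all genes by about the same amount, so the likeness of the 2 scales is no separate evidence. PVT1 (-0.30, SE 0.16) and OIP5-AS1 (0.02, SE 0.23) lay close to the TMM median of -0.13, and their side of it is uncertain.

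**Figure D2:**
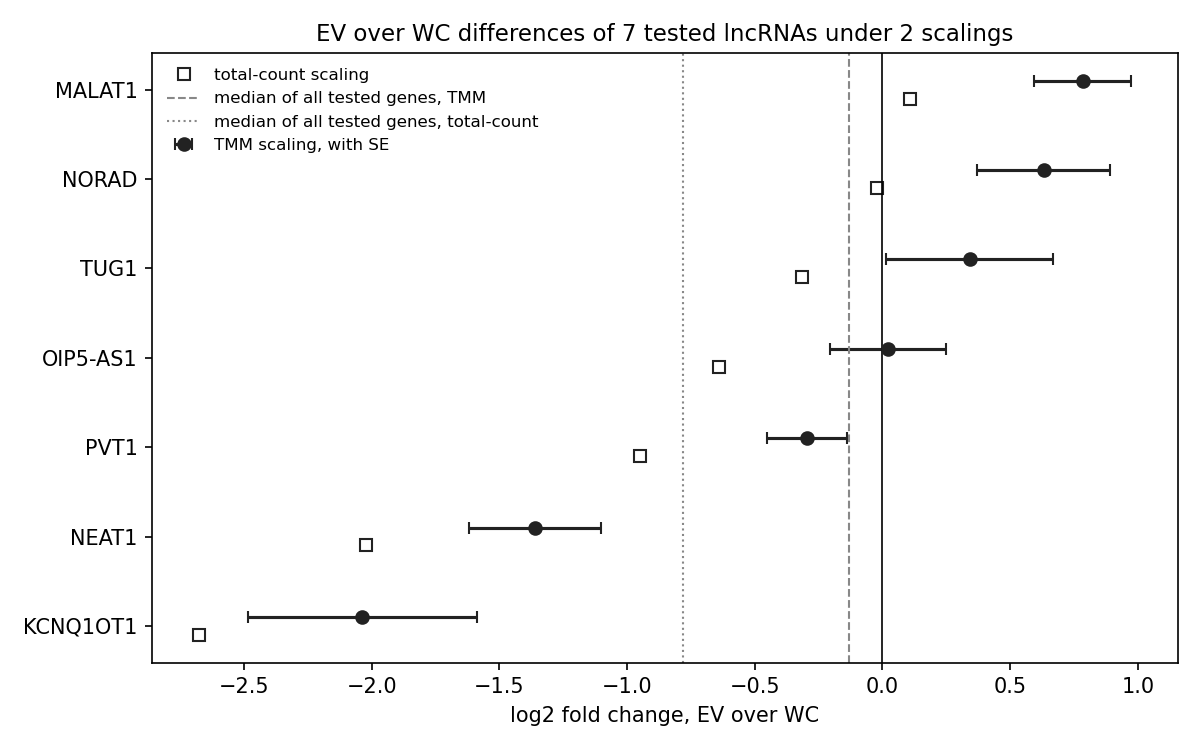
Log2 fold change, EV over WC, of the 7 tested lncRNAs with TMM scaling (filled points, with SE) and with total-count scaling (open squares). The dashed and dotted lines at -0.13 and -0.78 are the medians of all 8716 tested genes under each scaling. The order of the 7 genes is the same under both, since the change of scaling moves all genes by about the same amount.

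Ratios between 2 lncRNAs inside a library do not depend on any scaling. MALAT1 had 15.3, 21.2 and 18.7 reads per NEAT1 read in the EV libraries, and 5.02, 4.78 and 3.39 in the WC libraries. These neighbours on chromosome 11, both nuclear, thus differed in their EV representation by 2.07 on the log2 scale. Only the long form of NEAT1 has the 3′ end shown above, and the NEAT1 counts do not separate it from the short polyadenylated form. Against KCNQ1OT1 the MALAT1 ratio was 92.0, 92.0 and 299 in EVs and 14.6, 22.5 and 17.0 in WC, where the 299 rests on 1 KCNQ1OT1 read. PVT1 had 9.78, 9.58 and 9.92 reads per NORAD read in EVs and 20.3, 17.8 and 17.2 in WC. In all 3 ratios the groups did not overlap.

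MALAT1 and NORAD, by contrast, had ratios that overlapped: 12, 23 and 23 MALAT1 reads per NORAD read in EVs and 14.4, 21.0 and 15.5 in WC. There were 0.500, 0.317 and 0.533 NEAT1 reads per OIP5-AS1 read in EVs and 0.948, 1.26 and 1.14 in WC, again without overlap. Of the 21 pairs among 7 genes 13 did not overlap between EV and WC libraries. The share over other pairs of genes was not computed. Of all tested genes taken singly 55.2% did not overlap, so the count is not read as a trait of these lncRNAs. The 21 pairs share genes, and the ratios are given as a description with no test.

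Summed over the sets, the balance of nuclear to cytoplasmic lncRNAs overlapped between EVs and WC. Nuclear reads per cytoplasmic read were 8.85, 7.68 and 10.3 in the EV libraries and 9.59, 9.91 and 7.65 in the WC libraries, a mean log2 difference of -0.02 with overlapping groups. MALAT1 and PVT1 together made up most of the nuclear reads, and the balance moved with each. Without MALAT1 the ratio was 4.17, 2.47 and 3.40 in EVs and 6.01, 5.21 and 4.54 in WC, a log2 difference of -0.68 with no overlap. Without PVT1, left out after the data were seen, the ratio was 5.03, 5.51 and 7.35 in EVs and 4.54, 5.91 and 4.20 in WC, a log2 difference of 0.28 with overlapping groups. Counting TUG1 with either set left the difference at -0.01 or -0.04.

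**Figure D3:**
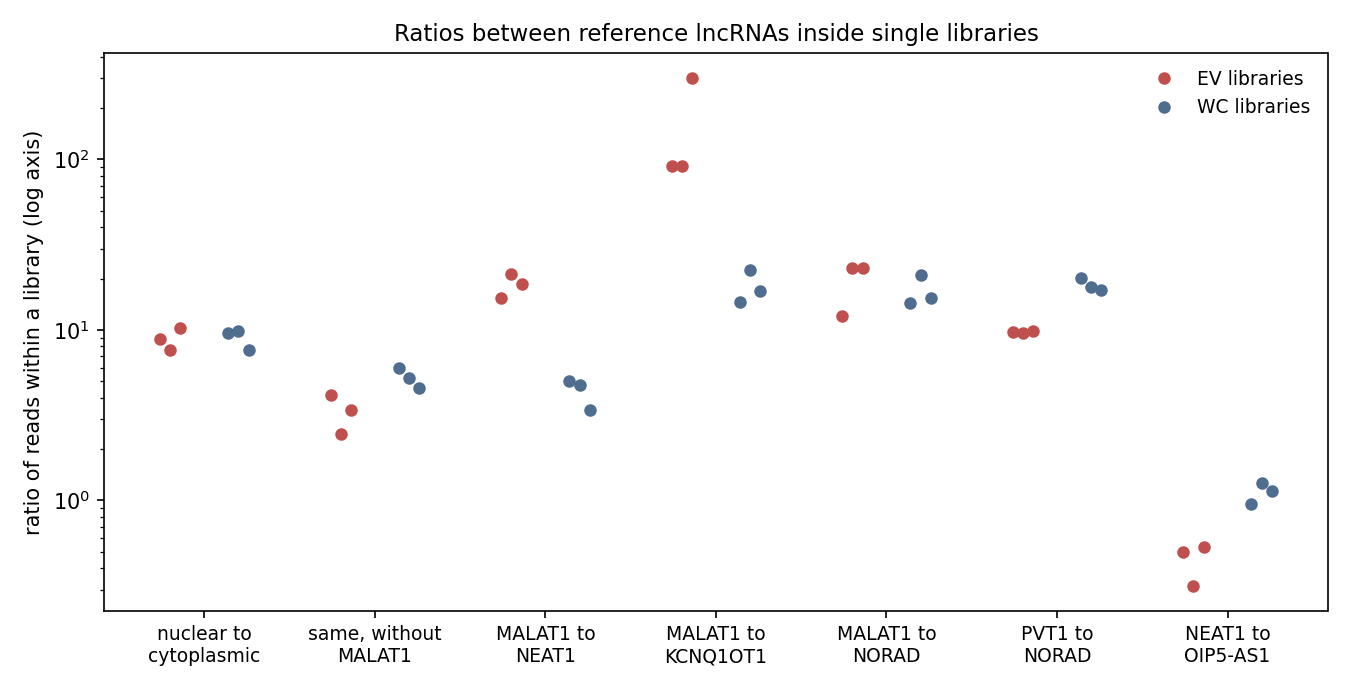
Ratios of reads within each library (log axis), EV libraries left of WC libraries, for the summed sets and for 5 pairs. The groups overlap for nuclear to cytoplasmic and for MALAT1 to NORAD, and stand apart in the other ratios shown, most of all for MALAT1 to NEAT1 and MALAT1 to KCNQ1OT1.

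The 8 lncRNAs took 0.0680 to 0.0852% of all counts in EV libraries and 0.0992 to 0.114% in WC libraries. Of the counts of all lncRNA genes they took 2.57 to 3.12% in EVs and 4.08 to 4.45% in WC. MALAT1 made up 46.1 to 60.4% of their reads in the EV libraries and 33.3 to 42.4% in the WC libraries, and NEAT1 2.78 to 3.23% in EVs and 6.62 to 10.3% in WC. Levels of different genes were compared per length, as transcript shares over the union of exons, scaled like CPM (TPM). In EVs the order was MALAT1 (26.4 ± 5.96 TPM), PVT1 (5.64 ± 0.793), NORAD (2.72 ± 0.371), OIP5-AS1 (1.55 ± 0.440), TUG1 (0.935 ± 0.325), NEAT1 (0.654 ± 0.0806) and KCNQ1OT1 (0.0238 ± 0.0123), with MIAT at 0. TUG1 and NEAT1, neighbours in it, lay within 1 SD of each other. In WC the order was MALAT1 (30.2 ± 5.997 TPM), PVT1 (13.5 ± 0.738), NORAD (3.45 ± 0.270), NEAT1 (3.25 ± 0.953), OIP5-AS1 (2.93 ± 0.640), TUG1 (1.49 ± 0.481), KCNQ1OT1 (0.189 ± 0.00958) and MIAT (0.0593 ± 0.0696), where NORAD, NEAT1 and OIP5-AS1 lay within 1 SD of each other. MALAT1 had a lower mean TPM in EVs, although its CPM was higher with TMM scaling and its log2 fold change 0.11 with total-count scaling, so levels between groups were read from CPM. The exon unions of PVT1 and OIP5-AS1 are far longer than their isoforms described below, which lowers their TPM.

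Among the lncRNA genes that passed the expression filter, lower levels in EVs were common. Of the 475 tested lncRNA genes 63 (13.3%) were higher and 187 (39.4%) lower in EVs, with a median log2 fold change of -0.67 where all genes had -0.13. The filter also passes genes through their WC reads alone, and 20 of these lncRNAs had no EV read. It thus favours lower calls, so these shares and the ranks below describe the filtered set, not lncRNAs as a class. MALAT1 stood above 86.1% of these lncRNAs, NORAD above 82.3%, TUG1 above 78.1%, OIP5-AS1 above 69.3% and PVT1 above 60.0%. NEAT1 stood above 34.3% and KCNQ1OT1 above 23.4%, both in the lower part but not at its end. Long genes that passed the filter were lower too. Of 169 tested lncRNA genes with at least 5000 nt of exon, which all 7 tested members have, 15 (8.88%) were higher and 81 (47.9%) lower in EVs, with a median of -0.88. Over 8701 tested genes, which share libraries and so are not independent, the log2 fold change and the exon length had a Spearman rho of -0.38, and over the 475 lncRNAs -0.18. The part of length in the values of single members was not tested.

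Other lncRNAs of known location were read beside the 8 as short lists. Of 11 further nuclear lncRNAs 5 had no reads, 4 were tested, and all 4 were lower in EVs (median log2 fold change -2.38). With 2 to 5 EV reads each, these 4 passed the expression filter through their WC reads. Such a filter favours lower calls, so the count is no test of nuclear lncRNAs. FTX, from the X-inactivation centre, had 0, 6.94 and 2.28 CPM in EVs and 33.3, 47.7 and 59.3 CPM in WC, which is -4.19 on the log2 scale (SE 0.54, edgeR adjusted p = 9e-07). JPX, from the same locus, had 2 reads in EVs, both in a single library, and 81 in WC (-2.60, SE 0.78, edgeR adjusted p = 0.0089). LINC-PINT stood at -2.16 and DLEU2 at -2.09, on 5 and 4 EV reads (edgeR adjusted p = 0.0017 and 0.0093). These 4 were lower under total-count scaling as well. Without EV replicate 1, however, DLEU2 stood at -1.27 (adjusted p = 0.13, edgeR) and JPX at -1.79 (adjusted p = 0.1), and neither passed. JPX also missed the threshold with DESeq2 (adjusted p = 0.063), and without EV replicate 3 it had no EV read left. Of 6 further cytoplasmic lncRNAs 4 were tested and 3 were higher in EVs, a call that each of the 3 kept under total-count scaling. Of all tested lncRNA genes 13.3% were higher and 39.4% lower in EVs. Both short lists were chosen with earlier results known, so their counts do not compare nuclear with cytoplasmic lncRNAs as classes. The 3 that were higher are all hosts of small nucleolar RNAs. ZFAS1 had 60.4, 78.6 and 66.2 CPM in EVs and 6.18, 14.3 and 7.85 CPM in WC (2.79 ± 0.28, SE, adjusted p = 9.3e-09, edgeR). GAS5 averaged 89.3 ± 28.5 CPM in EVs and 37.4 ± 7.77 CPM in WC, DANCR 14.7 ± 7.14 and 4.40 ± 0.742 CPM (SD, n = 3 each). The DANCR call was lost without EV replicate 3 (1.22, adjusted p = 0.078, edgeR). CYTOR did not pass the test, at 54.2 ± 9.85 CPM in EVs and 61.1 ± 5.24 CPM in WC. NORAD and OIP5-AS1, also cytoplasmic, lay between CYTOR and these 3.

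**Figure D4:**
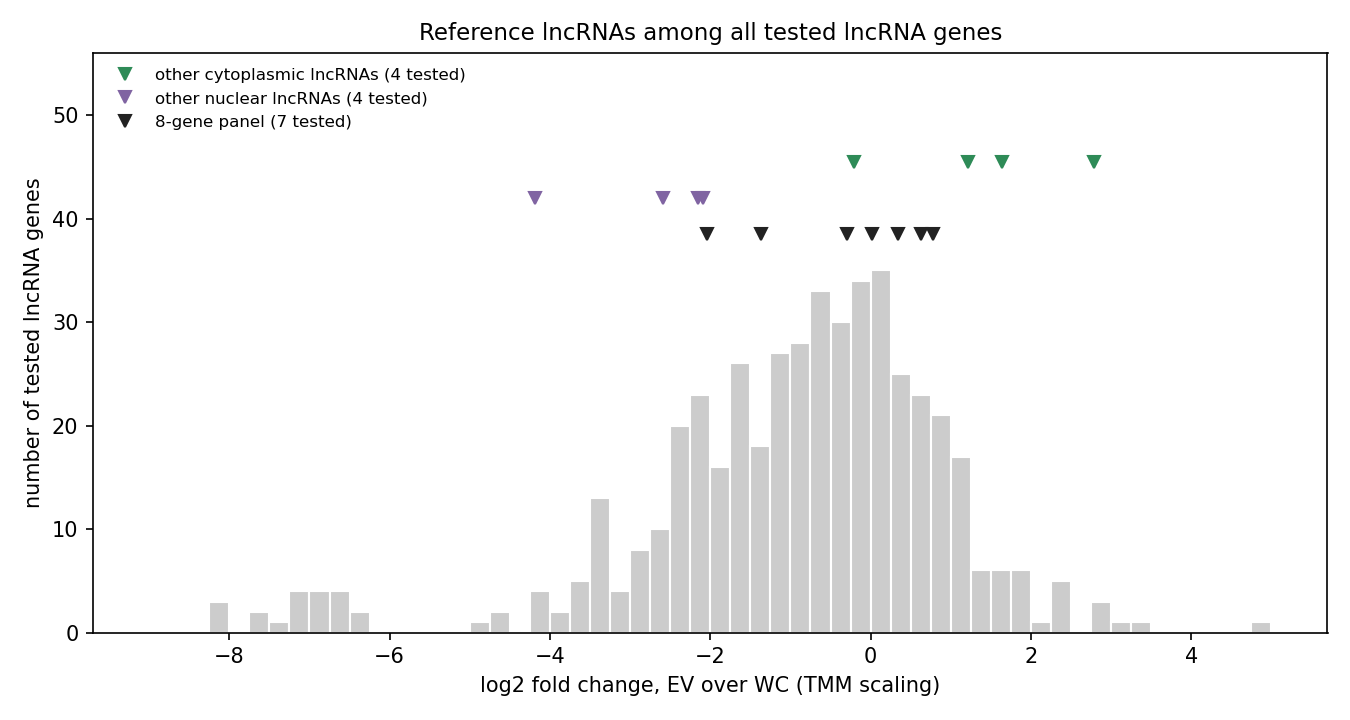
Log2 fold changes, EV over WC, of the 475 tested lncRNA genes (bars, number of genes per bin of the log2 fold change). Triangles mark, from top to bottom, the 4 tested further cytoplasmic lncRNAs, the 4 tested further nuclear lncRNAs and the 7 tested members, which reach from -2.04 to 0.78, and the 20 lncRNAs without an EV read make up the bars at the far left, where the fitted value is no bound.

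The lncRNAs with profiles most like MALAT1, by the distance of centred log2 CPM over the 6 libraries, were ENSG00000285838 (0.323), SNHG29 (0.333), a small nucleolar RNA host, and LINC01820 (0.411). SNHG29 averaged 52.5 ± 8.82 CPM in EVs and 32.0 ± 5.70 CPM in WC (SD, n = 3 each). Most like NORAD were LINC01234 (0.164), at 57.7 ± 2.79 CPM in EVs and 39.1 ± 2.71 CPM in WC, APTR (0.332) and OTUD6B-AS1 (0.352). These are likenesses over 6 libraries that fall into 2 groups.

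The mRNAs of proteins that meet these lncRNAs in the cell were counted against the same background of 22.8% of tested genes higher and 21.4% lower in EVs. Of 10 mRNAs of paraspeckle proteins, the partners of NEAT1, 5 were higher and 1 lower in EVs, with a median log2 fold change of 0.35. HNRNPH3, an RNA-binding protein needed for paraspeckles, led with 108 ± 23.1 CPM in EVs and 32.2 ± 3.79 CPM in WC (1.72 ± 0.21, SE, n = 3 each, adjusted p = 2.2e-07, edgeR) and kept its call under all 13 alternatives. SFPQ stood at 0.47 (adjusted p = 0.042, edgeR), a call that was lost under 9 of 13 alternatives, DESeq2 and the removal of any EV library or of WC replicate 1 or 2 among them, and its sign turned under total-count scaling (-0.19). HNRNPK (0.23 ± 0.22) and NONO (-0.16 ± 0.17) did not pass the test. The 1 that was lower, like NEAT1 itself, was SMARCA4, a chromatin remodeller named here after its values were seen (-0.67 ± 0.25, adjusted p = 0.036, edgeR). That call was lost under 6 of 13 alternatives, among them the removal of any EV library or of WC replicate 1 (adjusted p = 0.051 to 0.091). Under total-count scaling 2 of the 10 were higher and 3 lower.

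Of 10 mRNAs of nuclear speckle proteins, among which MALAT1 sits, 2 were higher, 1 was lower and 7 did not pass the test, with a median log2 fold change of 0.13. The most abundant, SON (0.24 ± 0.16), a scaffold of the speckle, and the splicing factors SRSF3 (0.00 ± 0.17), SRRM1 (0.25 ± 0.21) and SRSF7 (-0.01 ± 0.19), did not pass it. The 1 that was lower was SRRM2, another scaffold of the speckle, also named after its values were seen. It averaged 50.5 ± 16.4 CPM in EVs and 144 ± 3.22 CPM in WC (SD, n = 3 each), or -1.56 on the log2 scale (SE 0.22, edgeR adjusted p = 2.1e-06), and kept its call under all 13 alternatives. With total-count scaling none was higher and 5 were lower. Of 7 mRNAs of NORAD and OIP5-AS1 partners 2 were higher and 1 lower. KHDRBS1, an RNA-binding protein, rose by 0.89 ± 0.21 (SE, adjusted p = 0.0014, edgeR). PUM2 had 17.8, 9.25 and 22.8 CPM in EVs and 23.7, 32.9 and 40.4 CPM in WC and was lower (-0.95 ± 0.33, adjusted p = 0.021, edgeR), a call lost without EV replicate 2 (-0.72, adjusted p = 0.11) or WC replicate 3 (-0.83, adjusted p = 0.055). Under total-count scaling 5 of the 7 partner mRNAs were lower and none higher. RBMX, a binding partner of NORAD, was at 269 ± 21.5 CPM in EVs and 259 ± 17.4 CPM in WC (SD, n = 3 each).

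Genes next to the members in the genome had few reads, and 3 of 10 were tested. Besides MYC, CDKN1C, a growth inhibitor gene in the domain that KCNQ1OT1 silences, was higher in EVs (1.63 ± 0.50, SE, adjusted p = 0.0093, edgeR), on 19 EV and 39 WC reads, and FRMD8, upstream of NEAT1, stood at -0.66 ± 0.38. Neither MYC nor CDKN1C passed the test under total-count scaling. Without EV replicate 2 CDKN1C stood at 0.995 (adjusted p = 0.23, edgeR), and with DESeq2 it missed the threshold too (adjusted p = 0.058). Among mRNAs for RNA processing, RPP30, a subunit of the RNase P that cuts MALAT1, CPSF6 and METTL16 did not pass the test. Of 5 mRNAs of the polycomb and G9a complexes, with which KCNQ1OT1 acts, SUZ12 was higher (0.67 ± 0.24, adjusted p = 0.025, edgeR) and EZH2, EED and RBBP4 did not pass it. The SUZ12 call was lost under 8 of 13 alternatives, without EV replicate 1 or 3 or WC replicate 2 or 3 and with DESeq2 among them (adjusted p = 0.13, 0.1, 0.066, 0.1 and 0.15). Under total-count scaling none of the 5 was higher and EZH2 was lower (-1.13, adjusted p = 0.00055, edgeR), as it was with no expression filter (-0.68, adjusted p = 0.048).

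Isoform models, assembled by the authors with FLAIR from the reads of all libraries together, covered the 8 genes unevenly. Of 195235 models 69 belonged to PVT1, 6 to OIP5-AS1, 5 each to MALAT1 and TUG1, 1 to NORAD and none to NEAT1, KCNQ1OT1 or MIAT. NEAT1 had 47 EV and 794 WC reads and no model, while NORAD had 48 EV and 198 WC reads and a model of its whole length. The single NORAD model, 1 exon of 5401 nt, has the ends of the annotated gene and holds all 15 Pumilio elements, and its authors' mean was 30.6 normalized reads over all libraries.

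The 5 MALAT1 models are short and spliced, 394 to 2116 nt long with 2 or 3 exons, although the gene is best known as a single long exon. The most abundant in the authors' table were MALAT1-212 (2116 nt, authors' mean 17.95) and MALAT1-217 (431 nt, authors' mean 5.28). Together these 2 had an authors' mean of 23.2. The gene itself had 276 to 299 reads in each EV library and 819 to 1531 in each WC library. The tabled models thus stand for a small part of its reads and do not show the form of most MALAT1 RNA. No model reaches the 3′ stretch printed above, since the last one ends 1159 nt before it. The OIP5-AS1 models are 967 to 1558 nt long, and none of the 6 holds the miR-7 site in an exon. The only one in the authors' table, under the name OIP5-AS1-201 (authors' mean 7.12), ends 1486 nt before the site, although the annotated transcript of that name holds it. The TUG1 models are 1834 to 5078 nt long with 3 exons each, and TUG1-215 was the only one in the table (authors' mean 5.66).

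PVT1 models are 505 to 4723 nt long, with a median of 853 nt and 2 to 8 exons. Of the 69 models 59 end at the same base, 306730 nt from the start of the gene, and these include all 8 in the table. The most abundant were PVT1-299 (4 exons, 725 nt, authors' mean 81.3), PVT1-313 (3 exons, 612 nt, 69.7) and PVT1-297 (4 exons, 814 nt, 19.8), which all begin 250707 nt into the gene. The authors' means pool EV and WC libraries and carry no error, so isoforms were not compared between the groups.

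**Figure D5:**
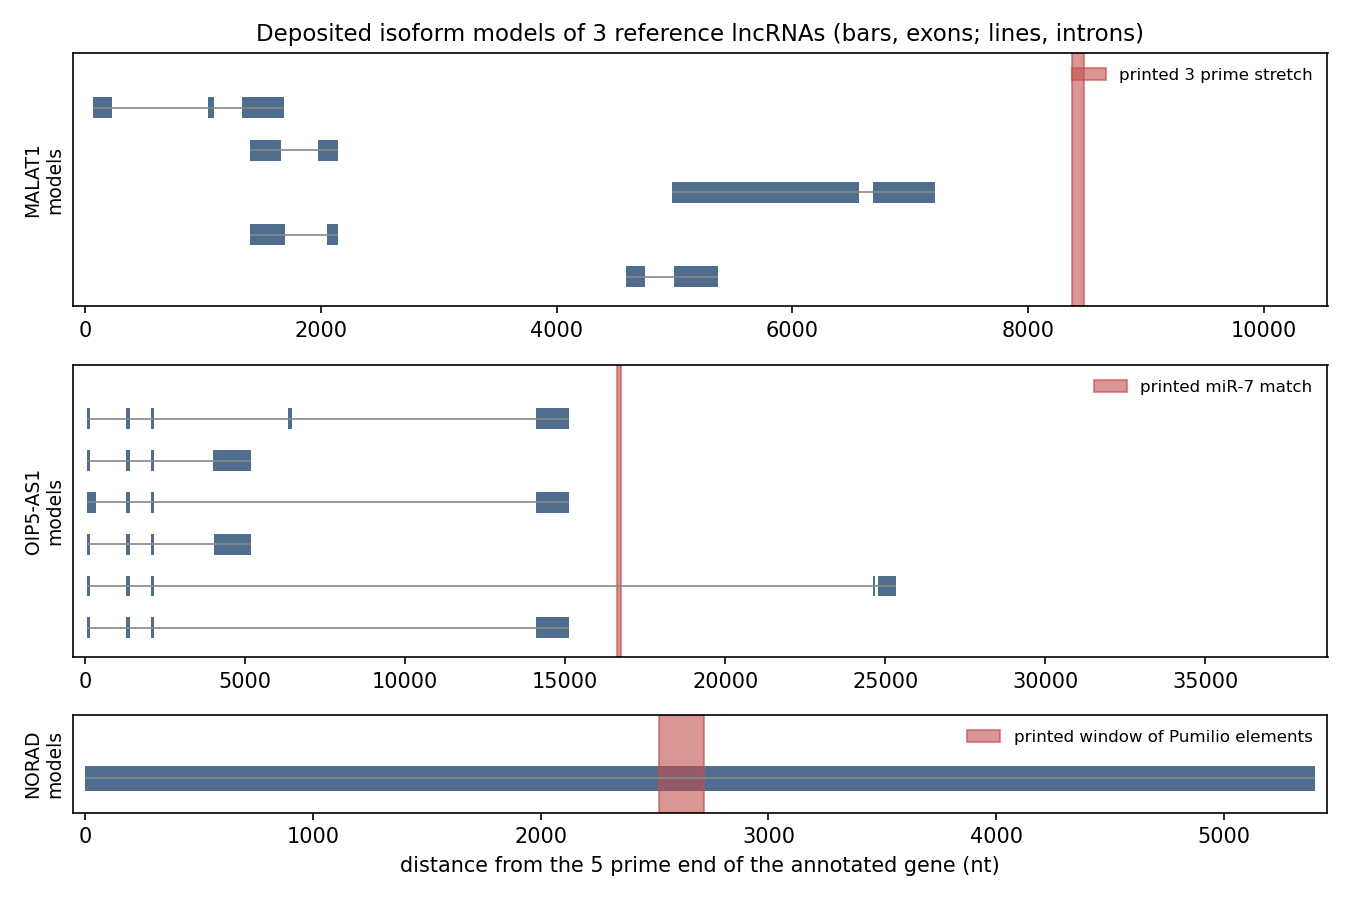
Isoform models of MALAT1, OIP5-AS1 and NORAD by distance from the 5′ end of the annotated gene in nt, each panel on its own scale, with exons as bars and introns as lines. Shaded bands mark the printed stretches: the NORAD window lies inside the model, while no MALAT1 model reaches its band and no OIP5-AS1 exon covers it.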

How the data were processed

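The members and gene lists were chosen with earlier results of these data known. The authors called bases with Guppy, mapped to GRCh38 with minimap2, and used featureCounts with GENCODE v41 to count reads per gene. How strand and multi-mapping reads were treated is not given in the sources used here. The paper classes mapped reads from regions where several genes overlap as ambiguous and unassigned. Reads over exons shared with an antisense gene may therefore be missing from the counts, and overlapping antisense genes cannot be told apart. All tests here start from the deposited raw counts of the authors. Normalized counts in the gene table are a signal that the authors made with 1 DESeq2 factor per library (100% of values fitted within 1%), and isoform means are a signal on the authors' own scale. A score field in the deposited isoform models was not interpreted. The authors' fold changes and p-values were not used.

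The table's 68247 lines gave 68201 genes once second lines of 46 IDs were dropped. GENCODE v44 held 61757 of these, with 99.95% of counts, and supplied lengths, positions and sequences. The test was the robust quasi-likelihood fit of edgeR 4.0.16 (R 4.3.3) with TMM factors and its expression filter, and p-values were adjusted by Benjamini-Hochberg over 8716 genes. CPM use TMM-scaled library sizes, and log2 CPM a prior count of 2. TPM were computed from counts and the union of exons. The fit was also tested on simulated counts, where it called only part of the smallest changes put in. A change that did not pass the test is thus not shown to be absent. Alternatives were scaling by RLE or by total counts, a minimum mean of 5 reads, all genes unfiltered, WC reads thinned to EV depth, DESeq2 1.42.0, each library left out in turn, and a replicate block. PVT1 was also left out of the nuclear sum, an alternative chosen after seeing the data. By the study's methods each replicate was a culture of its own, and the EV and WC library of 1 number shared culture and loading. After removal of group means, such paired libraries correlated at 0.06, 0.02 and 0.00445.

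Named genes were all members, the 4 tested genes of each list with the highest mean CPM, the 3 nearest lncRNAs of MALAT1 and NORAD, and the 3 most abundant isoforms of each member. GATA1, HBG2, TFRC, SRRM2 and SMARCA4 were named after their values were seen. Some genes that this rule selects are not reported here. Marker lists and all list counts cover every gene listed. Scripts ran in Python 3.11.15 with scipy 1.17.1, pandas 2.3.3, numpy 2.4.6 and, for figures, matplotlib 3.10.9.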

Additional observations from a re-analysis of the deposited data

How the results depend on the processing

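NEAT1 and KCNQ1OT1 stayed lower in EVs under all 13 alternatives (log2 -2.02 to -1.23 and -2.68 to -1.81), and MALAT1 stayed higher under all but total-count scaling (0.11). With the replicate block, which uses the paired libraries, MALAT1, NEAT1 and KCNQ1OT1 stood at 0.76, -1.30 and -2.05, no call of a named gene changed, and 1890 genes were higher and 1693 lower. Over 49 named genes and these alternatives 485 of 612 values kept direction and call, 57 lost the call, 19 gained it and 51 changed sign. Total-count scaling gave 1066 genes higher and 4494 lower, with 0 members higher and 4 lower, and WC thinned to EV depth 1316 and 1208. Signs turned with total-count scaling for NORAD (-0.0217), TUG1 (-0.31), OIP5-AS1 (-0.64), LINC01234 (-0.0881), OTUD6B-AS1 (-0.31), SFPQ (-0.19), HNRNPK (-0.45), SON (-0.43), SRSF3 (-0.65), SRRM1 (-0.41), RBMX (-0.60), RPP30 (-0.24), EED (-0.62), RBBP4 (-0.55) and GATA1 (-0.52). Without the filter they turned for OIP5-AS1 (-0.19), SRSF3 (-0.20), RBMX (-0.15), EED (-0.17), RBBP4 (-0.10) and GATA1 (-0.0761). Thinned WC libraries turned OIP5-AS1 (-0.0051), SRSF3 (-0.0069), RBMX (-0.0635) and RBBP4 (-0.0316), and DESeq2 turned OIP5-AS1 (-0.0783), SRSF3 (-0.11), RBMX (-0.0453) and EED (-0.0626). SRSF3 also turned with a mean of 5 reads (-0.0096) and the replicate block (-0.004). Leaving out 1 library gave OIP5-AS1 -0.24 to 0.24, HNRNPK -0.0681 to 0.36, SRSF3 -0.16 to 0.11, SRSF7 -0.14 to 0.0313, RBMX -0.0474 to 0.11, EED -0.21 to 0.19, RBBP4 -0.18 to 0.53 and GATA1 -0.12 to 0.23. The log2 difference in nuclear to cytoplasmic reads was -0.68 without MALAT1, 0.28 without PVT1, an alternative added after the data were seen, and -0.13 to 0.09 when 1 library was left out. No paired analysis was possible for isoforms because their values pool all libraries. Why values changed was not tested. EV depth limits KCNQ1OT1, TUG1, NORAD and NEAT1, with 7, 32, 48 and 47 EV reads, and MIAT, with none. KCNQ1OT1 passed the expression filter through its WC reads, which favours a lower call.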
